A study of Mus musculus with 11 samples.

Results

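The genes described here are 10 neighbours of Bdkrb1 on mouse chromosome 12: Lgmn, Golga5, Itpk1, Otub2, Ddx24, Ifi27, Ppp4r4, Dicer1, Clmn and Syne3. Bdkrb1 encodes the kinin B1 receptor, through which certain kinin peptides act on cells. The neighbours were taken by their place near Bdkrb1, with the Serpina genes between them left out. The choice was made with earlier results of these data known. Other genes lie there too. Within 25 places in the order of measured genes, 12 further genes stand on the same side, some nearer to Bdkrb1. The neighbours are 10 of the 18193 genes named on the array, and 20 of its 45101 probe sets carry their symbols.

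The tissue was epididymal fat, a visceral depot, of male C57BL/6 mice aged 3 months and fed chow, with 1 Affymetrix array for each of 11 mice as far as the labels tell. There were 4 arrays of wild-type mice (B1+/+), 4 of knockout mice (B1-/-) and 3 of fat rescue mice (aP2B1-B1-/-). Fat rescue mice carry the knockout allele too, and have in addition a B1 receptor transgene under the aP2 promoter. That promoter belongs to Fabp4, which is active in fat cells and is also known to be active in macrophages. Both lines without the endogenous receptor therefore share the targeted allele of Bdkrb1. The labels name neither the strain of the embryonic stem cells in which the allele was made nor the number of backcrosses. Replicates are called biological in the labels, and p-values measure the spread between these arrays only.

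A gene altered by homologous recombination is passed on together with the DNA around it. When the mouse is bred to another strain, this flanking DNA can stay that of the stem cell donor, over a stretch that shortens as breeding goes on. Sequence differences in the flanking DNA can change the expression of a neighbour, or the binding of its RNA to the short probes of an array. Signals of the neighbours that differ from wild type in both lines, and not between the lines, are therefore the pattern asked about here. Both lines also lack the endogenous receptor, so in this pattern an effect of its loss cannot be told apart from one of flanking DNA.

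In the gene order of the mouse assembly GRCm38.p6, all 10 neighbours lie on the lower-coordinate side of Bdkrb1. Counted over the 449 chromosome 12 genes measured here, they stand between 6 places (Syne3) and 24 places (Lgmn) from it. Syne3, Clmn and Dicer1 are closest, at 6, 7 and 8 places. Ppp4r4, Ifi27, Ddx24 and Otub2 follow at 12, 14, 16 and 17 places, and Itpk1, Golga5 and Lgmn lie at 22, 23 and 24. The files name no genome build, so genes are placed by their order, and coordinates are given only for sequences taken from RefSeq.

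The arrays had been scaled by the authors to a common trimmed mean of 200, and their median signals were 41.3 to 45.1 in wild-type mice, 46.5 to 48.8 in knockout mice and 45.6 to 46.6 in rescue mice, so wild type was lower than both lines throughout. The 3' over 5' signal ratio of Actb, a measure of RNA quality, was 1.65 to 1.83 in wild-type mice, 1.53 to 1.69 in knockout mice and 1.47 to 1.56 in rescue mice. On the first principal component, array 1 of wild type and array 1 of fat rescue lay far from the other arrays. The signal of Bdkrb1 itself was 3.7 to 32.2 in wild type and 4.8 to 29.7 in knockout. Fat rescue arrays gave 57.8 to 73.4, above all other arrays. At this low signal the wild-type and knockout arrays overlapped, so the array does not check the loss of the receptor. Of the defining fat cell markers, 7 of 8 were measured, with summed signals of 80540 to 108400 in wild-type mice, 73140 to 100200 in knockout mice and 79650 to 96250 in rescue mice. All 7 were lower in the joint comparison of both lines with wild type, by a median log2 difference of -0.12, and in fat rescue alone 6 of 7 were lower; 0 passed. Mesothelial and T and B lymphocyte markers were higher in 6 of 7 measured genes each in the joint comparison, by a median of 0.39 for either list, and 0 passed. Wild-type array 1 was lowest for both, with a mean log2 signal relative to wild type of -0.64 for mesothelial and -0.56 for lymphocyte markers. On the other 10 arrays these means ran from 0.07 to 0.51 and from 0.11 to 0.88. The part of array medians, RNA quality and these markers in the differences given here was not tested.

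None of the 10 neighbours passed the test in any of the 4 comparisons made, which were knockout with wild type, fat rescue with wild type, both lines together with wild type, and fat rescue with knockout. A gene passed where the Benjamini-Hochberg adjusted p of limma's moderated test was under 0.05 over all 12709 genes measured. The share of all genes that passed was 0.0393% in knockout against wild type, 0.0157% in fat rescue against wild type, 0.0708% in both lines against wild type and 0% in fat rescue against knockout. With so few genes passing anywhere, the count of 0 among 10 is near the background. At an unadjusted p under 0.05, 3 neighbours differed between both lines and wild type (Clmn, Lgmn and Ddx24), against 9.14% of all genes. The corresponding counts were 2 of 10 in knockout (Clmn and Syne3; background 7.3%), 2 of 10 in fat rescue against wild type (Clmn and Lgmn; background 8.09%) and 0 of 10 between the lines (background 3.81%). Against wild type, 7 of the 10 had a lower mean log2 signal in the joint comparison of both lines and 3 a higher one. Of all 12709 genes, 5731 were lower and 6978 higher there. The median log2 difference of the 10 was -0.15, beside 0.02 over all genes. Wherever genes of a list are counted as higher in both lines, this joint comparison is meant, on the deposited scaling. The comparisons with wild type share the same 4 wild-type arrays and are not independent of each other.

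**Figure D1:**
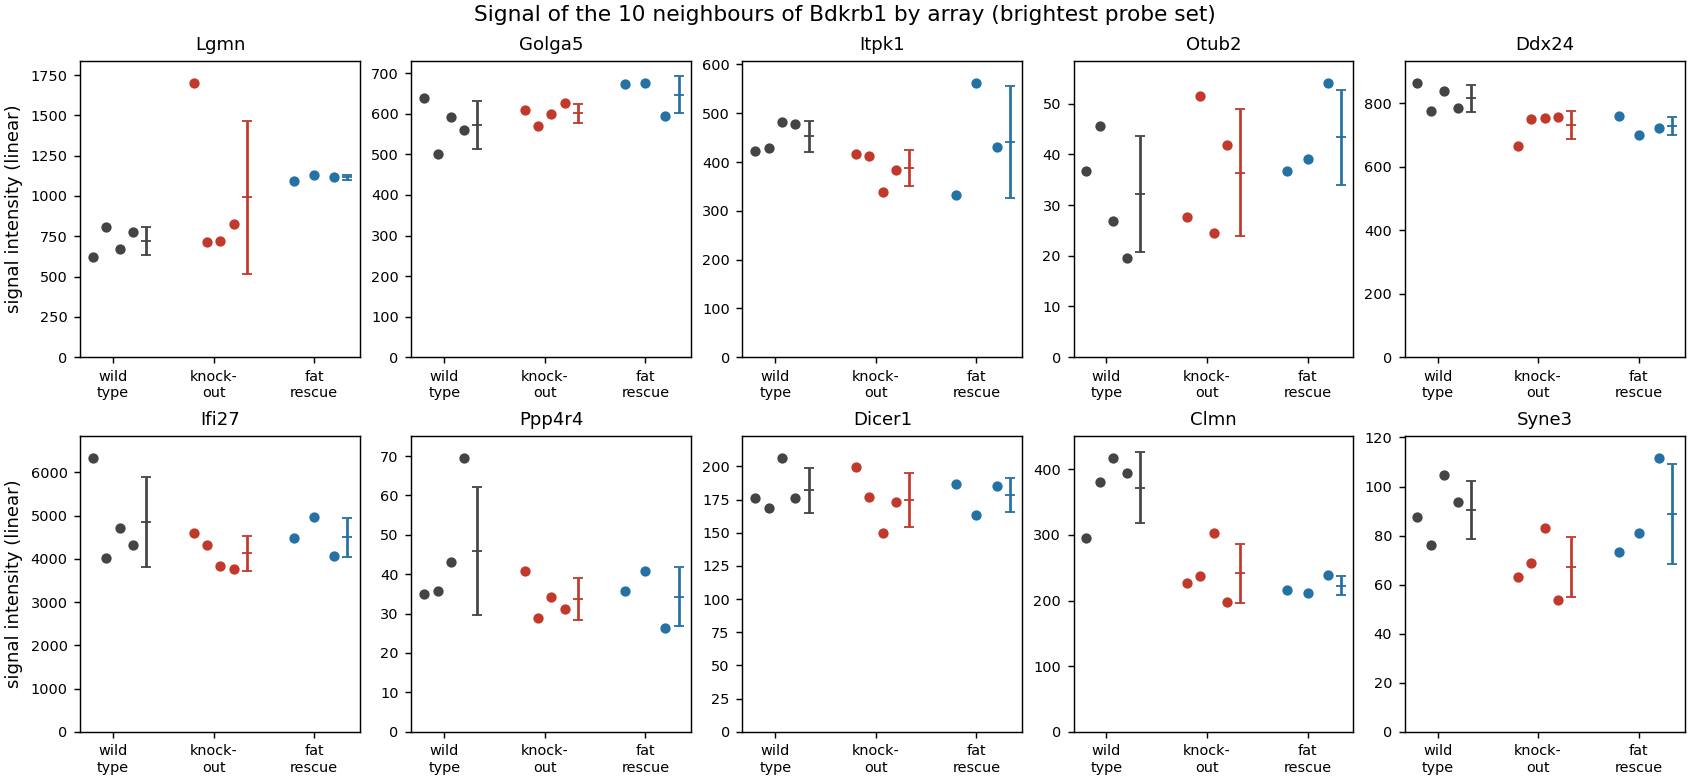
Signal intensity of each neighbour's brightest probe set on each of the 11 arrays (linear scale from 0, arbitrary units), by genotype, 1 point an array in replicate order, with the group mean and SD as a bar. The Clmn signals of both lines lie mostly below wild type, Lgmn is high on knockout array 1 and on the 3 rescue arrays, and the genotypes overlap for most of the other genes.

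Clmn, which encodes calmin, a membrane-anchored protein with calponin homology domains of the kind that bind actin, had the lowest p of the 10. Its brightest probe set (1425321_a_at) gave signals of 295.3, 380.5, 418 and 395.2 in wild type. The knockout arrays gave 227, 238, 303.7 and 197.8, and the rescue arrays 216.3, 212.2 and 239.4. The rescue arrays lay below every wild-type array, and so did the knockout arrays except array 3, which exceeded wild-type array 1. The log2 difference from wild type was -0.63 ± 0.14 (SE; limma adjusted p = 0.355) in knockout and -0.73 ± 0.15 (limma adjusted p = 0.209) in fat rescue. For both lines together it was -0.68 ± 0.13, with a 95% confidence interval from -0.95 to -0.41, an unadjusted p of 0.000135 and a limma adjusted p of 0.123. This is 0.624 times the wild-type level, and the 14th smallest p of all genes, of which 9 passed. Between fat rescue and knockout the brightest Clmn probe set differed by -0.10, with an interval from -0.44 to 0.23. Without wild-type array 1, where Clmn was lowest of its group, the difference of both lines was -0.79 and did pass (limma adjusted p = 0.0274). It also passed without knockout array 3 (-0.74, limma adjusted p = 0.0323) and with the arrays centred on their medians (-0.81, limma adjusted p = 0.0272), a step that moved the median of all genes from 0.02 to -0.10. With the mean of its probe sets in place of the brightest, it was -0.42 (limma adjusted p = 0.509).

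Calmin is covered by 6 probe sets, and the mean log2 signal was lower than in wild type for all 6 in fat rescue and for 5 of 6 in knockout. When every probe set was tested singly, 0 of the 20 neighbour probe sets passed in both lines against wild type, beside 0.04% of all 45037. None passed in knockout, in fat rescue, or between the lines either, beside 0.0178%, 0.0155% and 0% of all. In both lines 5 of 20 had an unadjusted p under 0.05, beside 7.58% of all. Of these 5, 3 belong to Clmn, and probe sets of the same gene on the same arrays are not independent of each other. The probe set 1436539_at read 61.3, 123.7, 133.6 and 149.3 in wild-type mice, 95.6, 39.6, 104.9 and 88.2 in knockout mice, and 52.9, 69.2 and 43.5 in rescue mice. Its log2 difference of both lines from wild type was -0.78 ± 0.29 (limma adjusted p = 0.585), with -0.53 in knockout and -1.03 in fat rescue. The knockout arrays lay inside or below the wild-type range, and only array 1 of the wild type fell among the rescue arrays. For 1457985_at the signals were 54.5, 63.9, 101.7 and 103.4 in wild-type mice, 43.4, 69.3, 42.1 and 81.3 in knockout mice, and 34.3, 49.8 and 42.6 in rescue mice, a difference of -0.68 ± 0.26 (limma adjusted p = 0.594). Here the rescue arrays were below every wild-type array, and 7.23% of all probe sets were separated in either direction in that comparison. The difference of 1457985_at was -0.46 in knockout and -0.90 in fat rescue. All 6 Clmn probe sets were lower in fat rescue than in knockout, by -0.10 to -0.51 with a median of -0.24. In that comparison 0 of the 6 had an unadjusted p under 0.05, beside 4.13% of all probe sets.

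The remaining 3 Clmn probe sets differed less. Both lines together differed from wild type by -0.18 ± 0.25 for 1429166_s_at, -0.12 ± 0.26 for 1451656_at and -0.09 ± 0.27 for 1439117_at on the log2 scale. The last of these spread widely within wild type, at 132, 190, 368.8 and 473.6, whereas the other lines lay between 186.7 and 295.7. Without wild-type array 1 these 3 differences were -0.51, -0.11 and -0.41. The ratio of 2 probe sets within an array shows whether they changed unequally. For the ratio of 1425321_a_at to 1451656_at the log2 difference of both lines from wild type was -0.56 ± 0.23, with an unadjusted p of 0.0302 and a limma adjusted p of 0.763. Over 1439117_at it was -0.59 ± 0.27 (limma adjusted p = 0.800), and over 1436539_at and 1457985_at it was 0.10 and 0.00. Of the 8 such ratios among the neighbours 0 passed, beside 0.00978% of 10228 ratios of all genes. Probe sequences were not used here, so which part of the transcript each probe set reads was not tested.

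**Figure D2:**
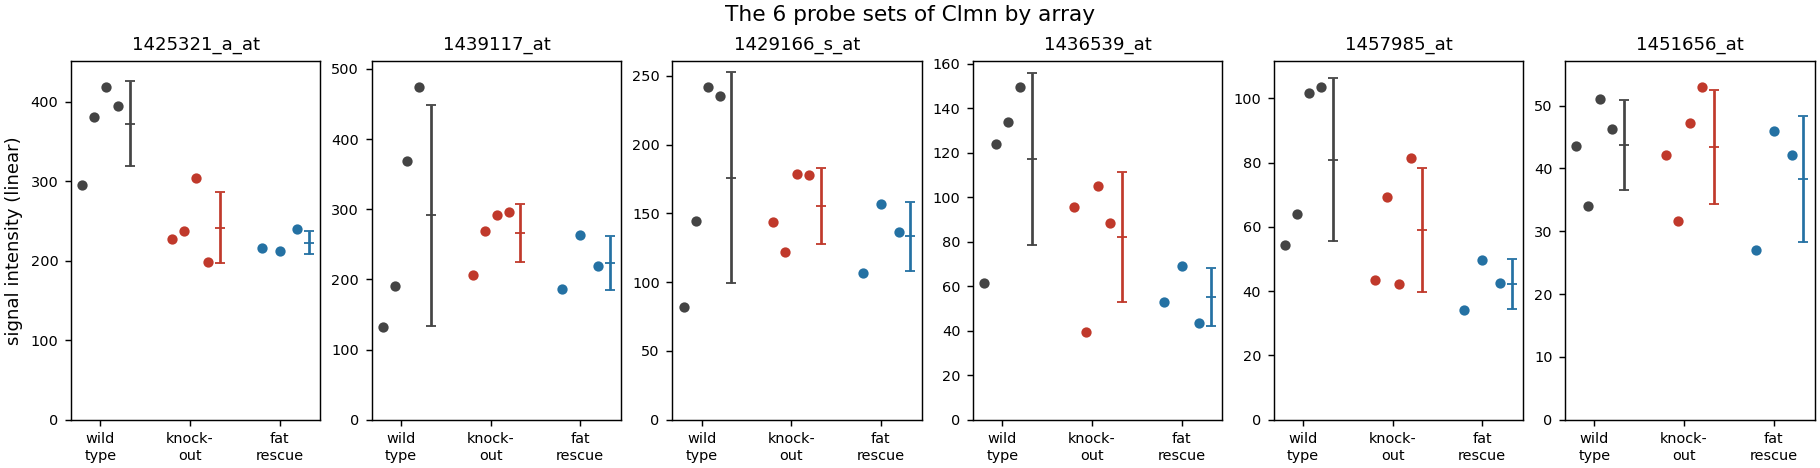
Signal intensity of the 6 Clmn probe sets on the 11 arrays (linear scale from 0, arbitrary units), 1 panel for each probe set, by genotype, with group mean and SD as a bar. Fat rescue means are below the wild-type means in all 6 panels, and wild-type array 1 is lower than the other wild-type arrays in several of them.

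The start region of Clmn is shown because this gene had the lowest p. The 250 bases before its transcription start in RefSeq lie at chr12:104865077-104865326 of GRCm38.p6 on the minus strand, and read 5' to 3' as follows.
Clmn: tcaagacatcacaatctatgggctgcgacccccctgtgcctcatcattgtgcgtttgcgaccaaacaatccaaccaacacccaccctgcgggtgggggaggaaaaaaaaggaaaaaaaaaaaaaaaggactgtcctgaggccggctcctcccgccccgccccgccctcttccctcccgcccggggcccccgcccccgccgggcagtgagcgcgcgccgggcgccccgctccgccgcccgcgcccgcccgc
The stretch is rich in G and C, at 67.6%, above 87.1% of the 32851 start regions of the same length, whose median was 52.4%. It is the reference sequence of the C57BL/6 assembly, and the alleles carried by these mice were not examined here.

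The genes whose scaled log2 signals over the 11 arrays were nearest to those of Clmn lay on 3 chromosomes. By root mean square distance they were Acer2 on chromosome 4 (0.300), Serinc3 on chromosome 2 (0.407) and Zfp277 on chromosome 12 (0.413). The closest 1% of genes lay within 0.724, and the median gene at 1.38. Serinc3 passed in both lines against wild type (-0.85, limma adjusted p = 0.0156). Acer2 and Zfp277 did not, at -0.43 and -0.56 (limma adjusted p = 0.334 and 0.0501).

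Lgmn encodes legumain, a lysosomal protease that cuts after asparagine and activates cathepsins, and is abundant in macrophages. It is the neighbour farthest from Bdkrb1 in this group. Its signals were 622, 806, 668.3 and 775.2 in wild-type mice and 1700.5, 715.8, 723.5 and 826.6 in knockout mice, and 1093.8, 1129.5 and 1120.1 in rescue mice. The rescue arrays exceeded every wild-type array, whereas among the knockout arrays array 1 lay far above wild type, array 4 just above it, and the others within its range. The log2 difference from wild type was 0.64 ± 0.24 in fat rescue (limma adjusted p = 0.551) and 0.37 ± 0.22 in knockout (limma adjusted p = 0.740). For both lines together it was 0.51 ± 0.20, with an unadjusted p of 0.0231 and a limma adjusted p of 0.470. Without knockout array 1 the knockout difference was 0.08 (limma adjusted p = 0.883) and that of fat rescue stayed at 0.64 (limma adjusted p = 0.0681). Between the lines Lgmn differed by 0.27, with a 95% interval from -0.25 to 0.79.

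Macrophage markers moved with Lgmn over the arrays. All 10 markers listed were measured, and 0 passed, although all 10 had higher means in both lines than in wild type. Their median log2 difference was 0.31, beside 0.02 over all genes, and the largest differences included Mpeg1 at 0.84 ± 0.26 (limma adjusted p = 0.356) and Ctss at 0.78 ± 0.28 (limma adjusted p = 0.436). The mean of the 10 markers, in log2 relative to wild type, was 1.01 on knockout array 1 and 0.17, -0.05 and 0.12 on the other knockout arrays. It was 0.36, 0.49 and 0.56 on the rescue arrays and -0.27, 0.27, 0.04 and -0.04 in wild type. Summed marker signals ranged from 13860 to 20320 in wild-type mice, 15440 to 32500 in knockout mice and 21110 to 24800 in rescue mice. The genes with profiles nearest to Lgmn were Nckap1l (distance 0.207), Lipa (0.218) and Tyrobp (0.230), on chromosomes 15, 19 and 7. In bulk fat, more cells of a type and more RNA per cell cannot be told apart. The part of the macrophage markers in the Lgmn signal was not tested.

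**Figure D3:**
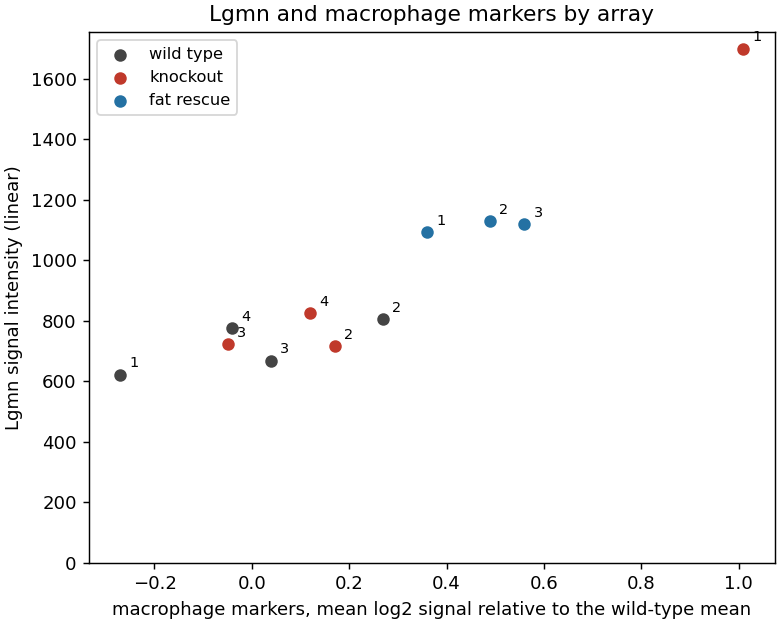
Lgmn signal intensity (y axis, linear, arbitrary units) against the mean log2 difference of 10 macrophage markers from wild type (x axis), 1 point for each of the 11 arrays, coloured by genotype and marked with its replicate number. Knockout array 1 is highest on both axes and the 3 rescue arrays follow.

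Of a list of 10 lysosomal cathepsins and cystatins, the proteases and inhibitors that act beside Lgmn, 9 were measured. Among these, 5 were higher in both lines, with a median log2 difference of 0.02 and 0 passing. The smallest p were those of Ctss, also one of the macrophage markers above, at 0.78, and Ctsd at -0.23. The core E-box CACGTG, part of the sequence through which lysosomal genes are known to be bound by TFEB, was searched on both strands in the 250 bases before each start. It occurred in 3 of 13 start regions of the neighbours, from 2 genes (Lgmn and Golga5), and in 6.02% of all start regions. The stretch around the Lgmn match, with the motif in capitals, lies at chr12:102439124-102439153 on the minus strand of GRCm38.p6, and the motif begins 49 bases before the start in RefSeq.
Lgmn: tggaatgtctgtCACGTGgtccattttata
A match is a description of the letters only.

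The RNA-handling neighbours are Ddx24, a DEAD-box helicase of the nucleolus, and Dicer1, the ribonuclease that cuts microRNA precursors. Ddx24 gave signals of 863.3, 774.9, 838.1 and 786 in wild-type mice, 664.8, 749.1, 751.8 and 757.1 in knockout mice, and 759.5, 701.1 and 722.4 in rescue mice. On its brighter probe set (1415713_a_at) it was the only neighbour with all 7 arrays of both lines below all 4 wild-type arrays. Such a separation in either direction was found for 1.38% of all genes. The difference was small, at -0.16 ± 0.07 on the log2 scale for both lines (unadjusted p = 0.0339, limma adjusted p = 0.511), and -0.16 in each line against wild type. Between the lines it was 0.00, with an interval from -0.18 to 0.17. The second, dimmer probe set of Ddx24 (1441631_at) did not separate the groups. There both lines differed from wild type by -0.28 ± 0.33 (limma adjusted p = 0.885 over all probe sets). Among 12 other DEAD-box genes 7 were higher in both lines and 0 passed, with a median of 0.04. Ddx27 differed by -0.37 ± 0.10 (limma adjusted p = 0.294) and Ddx47 by -0.29 ± 0.11 (limma adjusted p = 0.466).

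Dicer1 had the smallest difference of the 10. Its brighter probe set (1460571_at) read 176.3, 168.9, 206.7 and 176.2 in wild-type mice, 199.8, 177, 150 and 172.9 in knockout mice and 186.6, 163.7 and 185.5 in rescue mice. The groups overlapped, and both lines together differed from wild type by -0.04, with a 95% interval from -0.27 to 0.19. Dicer1 lies next to Clmn in the order of measured genes. Of 12 other genes of the microRNA pathway 8 were higher in both lines and 0 passed, with a median of 0.07. Those with the smallest p were Drosha at -0.29 and Tnrc6c at -0.19.

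Syne3 and Golga5 encode proteins of the nuclear and Golgi membranes. Syne3, the nearest of the 10 to Bdkrb1, encodes nesprin-3, which joins the outer nuclear membrane to intermediate filaments. It read 87.7, 76.1, 104.6 and 93.5 in wild-type mice, 63.3, 68.7, 83.1 and 53.6 in knockout mice, and 73.3, 81.1 and 111.8 in rescue mice. The knockout arrays lay below wild type except array 3, and the rescue arrays spread over the wild-type range. The log2 difference was -0.44 ± 0.20 in knockout (unadjusted p = 0.0444, limma adjusted p = 0.683) and -0.04 in fat rescue, and the lines differed by 0.40 ± 0.21, with an interval from -0.06 to 0.85. Without rescue array 3 the lines differed by 0.22. Other genes of the nuclear membrane bridge were measured in 9 of 10 cases, with 5 higher in both lines, 0 passing and a median of 0.00. Tor1a (-0.16) and Syne1 (0.12) had the smallest p.

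Golga5, the Golgi tether golgin-84, was at 573.1 ± 58.6 (SD, n = 4) in wild-type mice, 602 ± 23.6 (n = 4) in knockout mice and 647.9 ± 46.5 (n = 3) in rescue mice. Its log2 difference for both lines was 0.13, with an interval from -0.05 to 0.30. Among 8 other golgin genes 2 were higher and 0 passed, with a median of -0.04. The smallest p among them was that of Trip11, another gene of chromosome 12, which stands 29 measured places from Bdkrb1 on the same side. Its signal was 431 ± 34.7 (SD, n = 4) in wild-type mice, 358.5 ± 15.9 (n = 4) in knockout mice and 325.8 ± 28.6 (n = 3) in rescue mice. Both lines lay below wild type on every array, with a log2 difference of -0.33 ± 0.08 (limma adjusted p = 0.247). Golgb1 differed by -0.08.

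Ifi27 belongs to a family of small membrane proteins induced by interferon. Its 2 probe sets read 4845 ± 1040 and 4864 ± 871 (SD, n = 4) in wild-type mice, 4127 ± 403 and 4174 ± 249 (n = 4) in knockout mice, and 4502 ± 451 and 4281 ± 61 (n = 3) in rescue mice. Wild-type array 1 gave the highest value of both probe sets, at 6342.4 and 6005.3. The difference of both lines was -0.15 ± 0.12, with an interval from -0.41 to 0.10 and a limma adjusted p of 0.731. Without wild-type array 1 it was -0.01. Of 18 other interferon-induced genes measured, 16 had higher means in both lines, with a median log2 difference of 0.30 and 0 passing. Rsad2, itself a gene of chromosome 12 but far from the neighbours, was at 0.40 ± 0.12 (limma adjusted p = 0.336). Rtp4 was at 0.34 ± 0.11 (limma adjusted p = 0.356). Ifi27l2a and Ifi27l2b, relatives of Ifi27 beside it on the chromosome, differed by -0.03 ± 0.15 and -0.26.

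Itpk1, Otub2 and Ppp4r4 act in inositol phosphate synthesis, ubiquitin removal and protein dephosphorylation. Itpk1, a kinase that makes higher inositol phosphates, read 422.2, 428.6, 481.6 and 478 in wild-type mice, 415.5, 413.4, 337.7 and 384.2 in knockout mice, and 333, 562 and 430.6 in rescue mice. The knockout arrays were all below wild type, though the gap was narrow. This separation in either direction was found for 3.84% of all genes in knockout, and for 2 of the 10 neighbours, Itpk1 and Ddx24. The rescue arrays spread wider than either other group. Its log2 difference was -0.23 ± 0.14 in knockout (limma adjusted p = 0.743) and -0.15 ± 0.12 in both lines (limma adjusted p = 0.756), which became -0.05 without rescue array 1. Among 10 other genes of inositol phosphate metabolism 5 were higher in both lines and 0 passed, with Ppip5k2 at 0.15 and Minpp1 at 0.10.

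Otub2, a deubiquitinase, and Ppp4r4, a regulatory subunit of protein phosphatase 4, gave low signals. Otub2 read 19.6 to 45.7 in wild-type mice, 24.6 to 51.6 in knockout mice and 36.8 to 54.1 in rescue mice. Ppp4r4 read 34.9 to 69.6, 28.8 to 40.9 and 26.3 to 40.9. The groups overlapped for both genes. Their intervals for both lines were the widest of the 10, from -0.34 to 1.01 for Otub2 and from -0.96 to 0.18 for Ppp4r4. A fall as large as that of Clmn could not be told from none for Ppp4r4, nor a rise that large for Otub2. Of 10 other deubiquitinases of the OTU family 8 were higher in both lines and 0 passed, with Yod1 at -0.28 ± 0.14 and Otud6b at 0.20. Of 7 other genes of protein phosphatase 4 and its relatives 4 were higher and 0 passed, with Ppp4r2 and Ppp2cb both at 0.11.

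Fat rescue and knockout, which share the targeted allele, differed by an unadjusted p under 0.05 in none of the 10 genes, and limma adjusted p-values ran from 0.998 to 1. The largest difference of the 10 was that of Syne3, at 0.40. The widest interval was that of Otub2, from -0.52 to 1.11, and a p that misses the threshold does not show that the lines are alike. No neighbour was apart between the lines, beside 4.93% of all genes. In fat rescue against wild type 3 of 10 were apart (Lgmn higher, Clmn and Ddx24 lower), beside 9.24% of all genes.

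**Figure D4:**
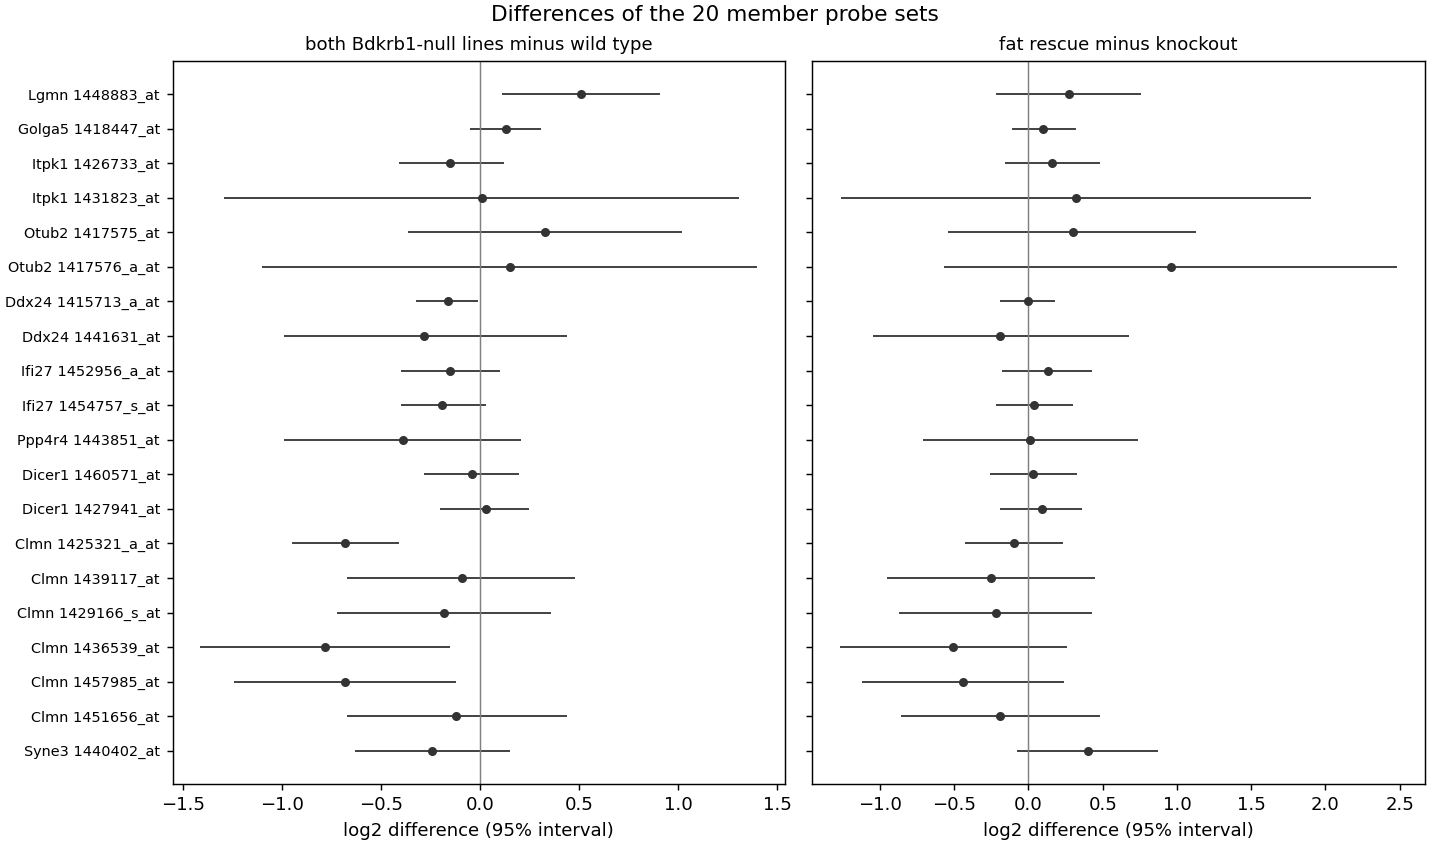
Log2 difference of both lines from wild type, and of fat rescue from knockout, for the 20 probe sets of the 10 neighbours, with 95% confidence intervals. The 3 Clmn probe sets with unadjusted p under 0.05 lie below 0 against wild type, while the intervals between the lines include 0 for all 20 probe sets.

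The other genes near Bdkrb1 give the setting of the 10. Among the 12 further measured genes within 25 places on the same side, with Serpina genes left out, 8 were lower and 4 higher in both lines, with a median log2 difference of -0.18. Within 25 places on the far side, 19 of 25 were higher and 6 lower, with a median of 0.11. None of these 37 genes passed, and 3 had an unadjusted p under 0.05, which is 8.11% beside 9.14% of all genes. They were Glrx5 at -0.25 ± 0.08 (limma adjusted p = 0.417), Evl at 0.58 ± 0.22 (limma adjusted p = 0.451) and Wdr25 at 0.57 ± 0.23 (limma adjusted p = 0.489). The share depended on the window. Within 50 places on the side of the 10, 8 of 37 further genes (21.6%) had an unadjusted p under 0.05. In that window 5.41% were apart, beside 1.38% of all genes. Within 50 places on the far side 5 of 50 (10%) were under 0.05, and within 100 on either side 15 of 169 (8.88%). The nearest measured genes to Bdkrb1 were D430019H16Rik at -0.32 ± 0.30 on the side of the 10, and Atg2b at 0.13 ± 0.15 on the other. Of the Serpina genes left out, which lie between Ppp4r4 and Dicer1, Serpina1b (4.34 ± 0.25, limma adjusted p = 3.08e-06) and Serpina3n (0.78 ± 0.10, limma adjusted p = 0.00916) rose in both lines.

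**Figure D5:**
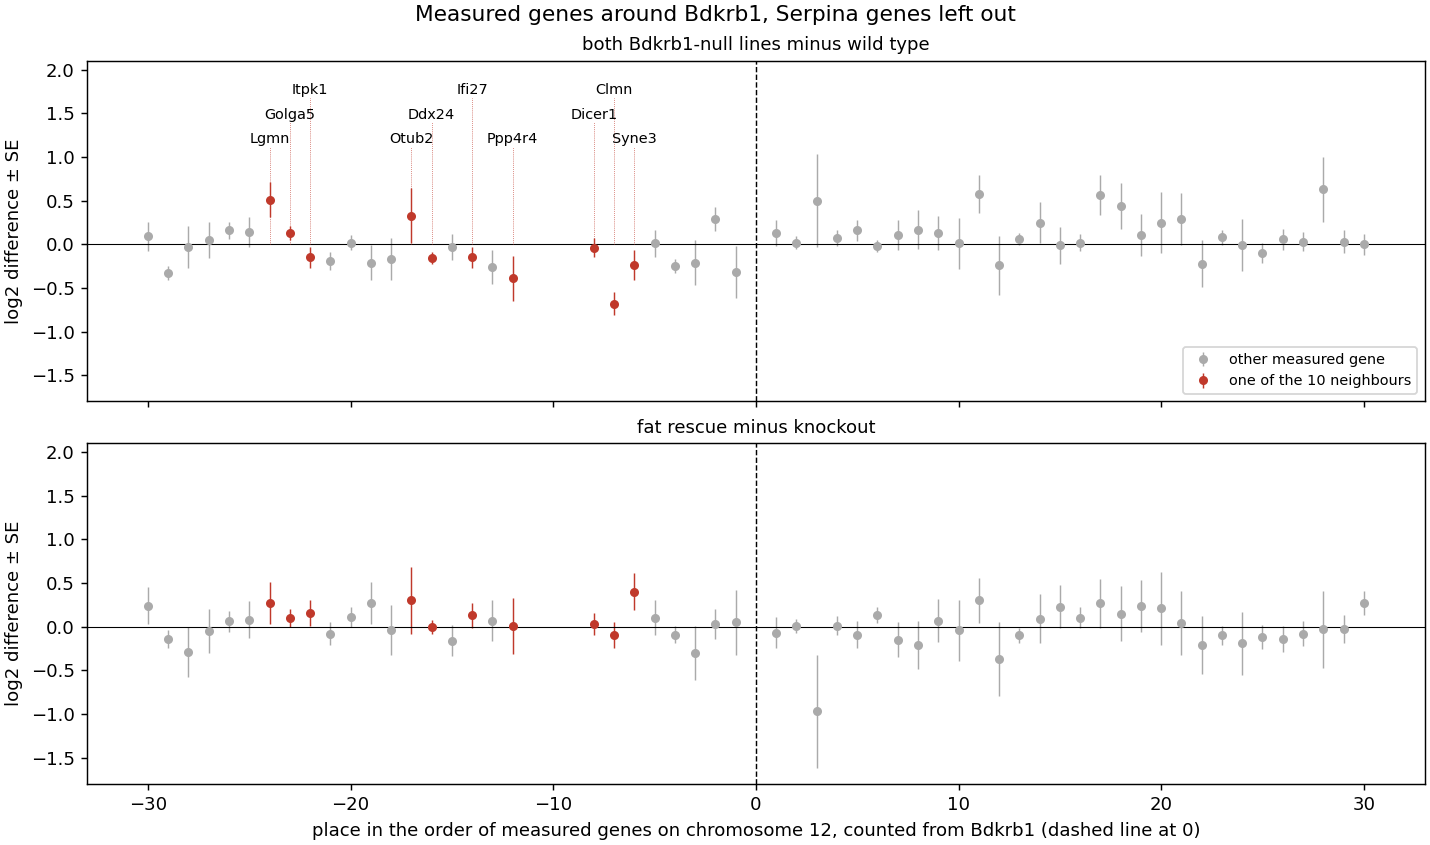
Log2 difference with its SE (y axis) of both lines from wild type (upper panel) and of fat rescue from knockout (lower panel) for measured genes within 30 places of Bdkrb1 in chromosomal order (x axis, places), with Serpina genes left out and the 10 neighbours marked. In the upper panel Clmn is the lowest of the 10 at -0.68 and Lgmn the highest at 0.51, and in the lower panel the 10 lie between -0.10 and 0.40.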

How the data were processed

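RNA of epididymal fat from 4 wild-type, 4 knockout and 3 fat rescue mice was hybridized to 1 one-colour array each. The deposited values are the authors' signal intensity per probe set, on a linear scale, made with GCOS 1.3 and MAS5 per the submitters' processing notes; with 2% trimmed at each end, the mean was 200 on every array. A single value of 0 was set to 0.1 before log2 was taken.

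Genes were represented by the brightest of their probe sets in the upper 60% by mean log2 signal (mean signal above about 23.7), which kept 27022 of 45037 probe sets and gave 12709 genes. All 10 neighbours and 18 of their 20 probe sets were kept; a second probe set of Itpk1 and one of Otub2 were not. The genotypes were fitted in 1 model with limma 3.58.1 in R 4.3.3 (eBayes with trend, two-sided), with Benjamini-Hochberg adjustment over all genes, and the same was done for every probe set singly and for log2 ratios of the brightest to each dimmer probe set of a gene. Groups are called apart where their arrays do not overlap. The number of arrays limits the precision.

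Gene order and start regions came from RefSeq tables of GRCm38.p6, in which 12685 genes had a place; 9 of the 10 neighbours had a start region. The alternatives were quantile normalization, median centring, log2(value + 50), no filter, the upper 40%, a gene's mean over probe sets, eBayes without trend or robust, a block for the replicate number, a fit of only the groups compared, and each array left out. The neighbours, gene lists and tests were chosen with earlier results of these data known. Genes named are the neighbours; those within 25 places that pass, or else the 3 with the smallest p; in each list those that pass, or else the 2 with the smallest p; and the 3 genes nearest in profile to Clmn and Lgmn, which had the smallest F-test p. D430019H16Rik, Atg2b, Ifi27l2a, Ifi27l2b and Mpeg1 are named for their place or as a marker, outside this rule. The steps were tested on simulated data. Replicate numbers were not treated as pairs: deviations from the group means correlated at -0.14 to 0.35 in the 10 same-number pairs of arrays and at -0.31 to 0.28 in the 30 others. For 5 of the 11 arrays the highest correlation was with an array of the same number.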

Additional observations from a re-analysis of the deposited data

Results flagged for a closer look

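Among 40 sets of 4 arrays (each probe set of the neighbours in wild type and in knockout), 3 held an array far from the others by Dixon's test, where chance alone flags about 1 in 20. Lgmn read 1700.5 on knockout array 1, against 715.8 to 826.6 on the other knockout arrays, and this array was also highest for the macrophage markers. Ddx24 read 664.8 on the same array, against 749.1 to 757.1 on the others. The dim second probe set of Itpk1 (1431823_at), below the signal filter, read 4.7 on wild-type array 4, with the others between 1.7 and 1.9.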

How the results depend on the processing

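No neighbour and no neighbour probe set passed under any alternative, except Clmn in both lines against wild type. There the count rose from 0 to 1, for genes and for single probe sets, under median centring, and on leaving out wild-type array 1 or knockout array 3 (single probe set limma adjusted p = 0.022, 0.0421 and 0.0434). Its log2 difference ran from -0.81 to -0.42 over 21 alternatives, with limma adjusted p from 0.0272 to 0.509. Leaving out each array in turn gave counts of 0 to 1 there and 0 in the other comparisons. No paired reading was made: with the replicate number as a block Clmn was at -0.69 (limma adjusted p = 0.0868) and the counts stayed at 0. Without 1 array, the difference of both lines ran from -0.23 to -0.01 for Ifi27, -0.24 to -0.05 for Itpk1, -0.50 to -0.17 for Ppp4r4 and 0.12 to 0.52 for Otub2 (both nearest 0 without wild-type array 4) and 0.06 to 0.18 for Golga5, and that between the lines from 0.22 to 0.52 for Syne3 and 0.15 to 0.56 for Lgmn. Several small differences changed sign. Median centring put Golga5 in knockout at -0.07, and the mean of probe sets put Dicer1 in fat rescue against wild type at 0.02. Without wild-type array 1 and rescue array 1 together, an alternative chosen after seeing the data, fat rescue minus wild type was 0.09 for Itpk1, 0.05 for Ifi27 and 0.07 for Syne3, and fat rescue minus knockout was -0.03 for Ppp4r4. Leaving out 1 array gave, for fat rescue minus wild type, -0.17 to 0.05 (Ifi27), -0.06 to 0.04 (Dicer1), -0.22 to 0.08 (Syne3) and -0.25 to 0.12 (Itpk1). For knockout minus wild type it gave -0.03 to 0.38 (Otub2) and -0.13 to 0.01 (Dicer1), and for both lines -0.08 to 0.02 (Dicer1). For fat rescue minus knockout it gave -0.13 to 0.19 (Ppp4r4), -0.04 to 0.10 (Dicer1), -0.19 to 0.01 (Clmn) and -0.03 to 0.35 (Itpk1). The cause was not tested. A fit of only the groups compared holds all arrays for both lines against wild type, and was not run there. The upper 40% of probe sets left out Otub2 and Ppp4r4, and their dim signals limit what could be seen.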

Other observations

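There were 267 genes of chromosome 12 farther than 100 measured places from Bdkrb1. Of these, 44 (16.5%) had an unadjusted p under 0.05 in both lines against wild type, beside 8.97% of 12236 genes on other chromosomes. In the same comparison 11 (4.12%) had groups that did not overlap, beside 1.3% on other chromosomes. One of the 267, Vcpkmt, passed (1.15 ± 0.17, limma adjusted p = 0.0243). Vcpkmt was chosen after its values were seen.

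Galc, the lysosomal galactosylceramidase gene, lies 48 measured places from Bdkrb1 on the side of the 10 neighbours and was also singled out after its values were seen. Its brightest probe set read 363.6, 346.7, 329.6 and 333.5 in wild-type mice, 209, 18.6, 146.6 and 89 in knockout mice and 23.5, 186 and 18.4 in rescue mice. Every array of both lines was below wild type, by -2.51 ± 0.66 on the log2 scale, and the spread within the lines left the limma adjusted p at 0.294. A second probe set of Galc (1420547_at) had a difference of the opposite sign, at 0.53 ± 0.24 (limma adjusted p = 0.65 over all probe sets), and the last one (1449900_at) was dim and differed by 0.05. Whether the probe sets read different transcripts or alleles was not tested.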
